A study of Mus musculus with 6 samples.

Results

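The miRNA miR-378 and its star strand miR-378* were followed in small RNA libraries of 6 mouse brains. The members are the rows of the deposited read tables named miR-378 with any letter or arm, which gave 2 of 1055 mature miRNAs. They were chosen by their measured reads: miR-378 has the highest read number in these libraries, so its level, its rank and the excess over its star strand are given as a description without a test. The brains were taken whole from sibling females of a 129SV background at 5.5 months of age, 3 of them wild type and 3 Adar2-/-. Both genotypes were homozygous for the pre-edited Gria2 R/R allele, so the wild-type mice carry that allele as well, and Adar2 was missing from every cell of the knockouts. Each library came from a separate brain. A whole brain holds many cell types, so more cells of a type and more miRNA per cell cannot be told apart.

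A miRNA hairpin is cut by Drosha and Dicer into a short duplex. One strand, the guide, is retained by an Argonaute protein and directs it to mRNAs that pair with the seed near the 5′ end, and the other strand, the star, is usually degraded. The gene of miR-378 lies in an intron of Ppargc1b, which encodes PGC-1beta, a coactivator of genes for mitochondria and energy use. miR-378 and miR-378* are known to act against the metabolic programme of their host gene, and they are best known from muscle, heart and brown fat rather than from brain. In current nomenclature the guide is miR-378a-3p and the star miR-378a-5p. ADAR2 is an adenosine deaminase that edits double-stranded RNA, among them several miRNA hairpins. The study that made these libraries reported that miR-378a was edited in the adult brain. Whether the reads of miR-378 carry edited bases was not analysed here.

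Other Mir378 genes of the mouse had no row of their own in the tables. RefSeq places the mature miRNAs of Mir378b at chr11:88352839-88352858 on the plus strand, of Mir378c at chr14:46954905-46954925 on the minus strand and of Mir378d at chr10:126710355-126710376 on the minus strand of GRCm38.p6. They are 20, 21 and 22 bases long. Mir378b differs from Mir378c at 1 and from Mir378d at 2 of 20 aligned bases, and Mir378c differs from Mir378d at 2 of 21. They were not compared with miR-378 itself, and how reads of these genes, if there were any, were counted cannot be seen from the tables.

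The miRNAs that miR-378 is compared with are shown by their mature sequences from RefSeq, 5′ to 3′, with the seed (bases 2 to 8) in capitals. The first 5 are those with the most reads after miR-378, and miR-132 and miR-138 follow miR-9 among the guides known to be enriched in brain. The star strands of miR-9 and miR-191 are shown because their hairpins mark a weak and a strong imbalance of the arms among abundant miRNAs.
miR-9: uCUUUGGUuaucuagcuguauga
miR-127: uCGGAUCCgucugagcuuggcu
miR-182: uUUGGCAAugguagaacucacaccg
miR-183: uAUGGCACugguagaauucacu
miR-126-3p: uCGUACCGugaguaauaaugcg
miR-132: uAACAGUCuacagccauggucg
miR-138: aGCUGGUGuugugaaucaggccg
miR-191: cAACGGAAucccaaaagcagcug
miR-9*: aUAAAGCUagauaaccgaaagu
miR-191*: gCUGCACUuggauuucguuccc
None of these sequences shares its seed with another of them. miR-9 comes from 3 genes, of which Mir9-2 holds the guide at chr13:83738821-83738843 and the star at chr13:83738858-83738879 on GRCm38.p6. The guide of miR-191 lies at chr9:108568325-108568347 and its star at chr9:108568367-108568388. miR-182 at chr6:30165962-30165986 and miR-183 at chr6:30169711-30169732 belong to the same cluster on the minus strand. The miR-127 sequence lies at chr12:109592888-109592909, that of miR-126-3p at chr2:26591402-26591423 in an intron of Egfl7, and that of miR-132 at chr11:75173723-75173744, all 3 on the plus strand. miR-138 comes from 2 genes, with the copy in Mir138-2 at chr8:94324312-94324334. miR-378, miR-124 and miR-30d are named only.

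The wild-type libraries held 12449633 to 23471819 mapped miRNA reads and the Adar2-/- libraries 18645810 to 23935544, and 399 miRNAs had at least 100 reads in every library. Levels are given as percent of these reads or as reads per 1000000 of them (RPM). How well each sequence was captured in a library was not measured, so levels of different miRNAs or arms compare reads rather than molecules. A pair of libraries stood apart in miRNAs of other cell types. In wild-type replicate 1 the summed level of miR-7 and miR-375, known from neuroendocrine cells, was 7527 RPM against 1302 to 4748 RPM in the other 5 libraries. miR-375 stood apart there, with 3294 RPM against 42.9 to 112.6 RPM in the other 5. The miR-7 rows did not: miR-7a had 2976 RPM against 3585 RPM in Adar2-/- replicate 3, and miR-7b had 1189 against 1074 RPM. In Adar2-/- replicate 3 the sum of the sensory and pineal miRNAs miR-96, miR-182 and miR-183 was 19159 RPM against 89665 to 186904 RPM in the other 5. Values for miR-378 without each of these libraries are given with the comparison of the genotypes.

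In the wild-type brains, in the order of their replicate numbers, the guide miR-378 had 2550178, 3117522 and 4253084 reads. The knockout brains had 4000156, 4094924 and 4446841 reads of it. As a share of its library this was 20.5%, 13.7% and 18.1% for wild type and 21.5%, 17.4% and 18.6% for Adar2-/-. It held rank 1 in all 6 libraries, and wild-type replicate 2 had the lowest share. The mean share over all libraries was 18.3% ± 2.72 (SD, n = 6), and the highest library stood 1.57-fold above the lowest. Counting error, given as the 95% Wilson interval, was no more than 0.0224 percentage points in each direction, far below the spread between libraries.

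miR-378* had far fewer reads. They numbered 501, 1313 and 1613 in wild type and 689, 1479 and 1536 in Adar2-/-. This corresponds to 40.2, 57.6 and 68.7 RPM in wild type and to 37.0, 62.7 and 64.2 RPM in Adar2-/-. Replicate 1 was the lowest library of each genotype. With a mean of 55.1 ± 13.3 RPM (SD, n = 6), the star ranked between 226 and 277 within a library. Of the 93 rows with a star in their name among the 399, it held place 38 by mean RPM.

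**Figure D1:**
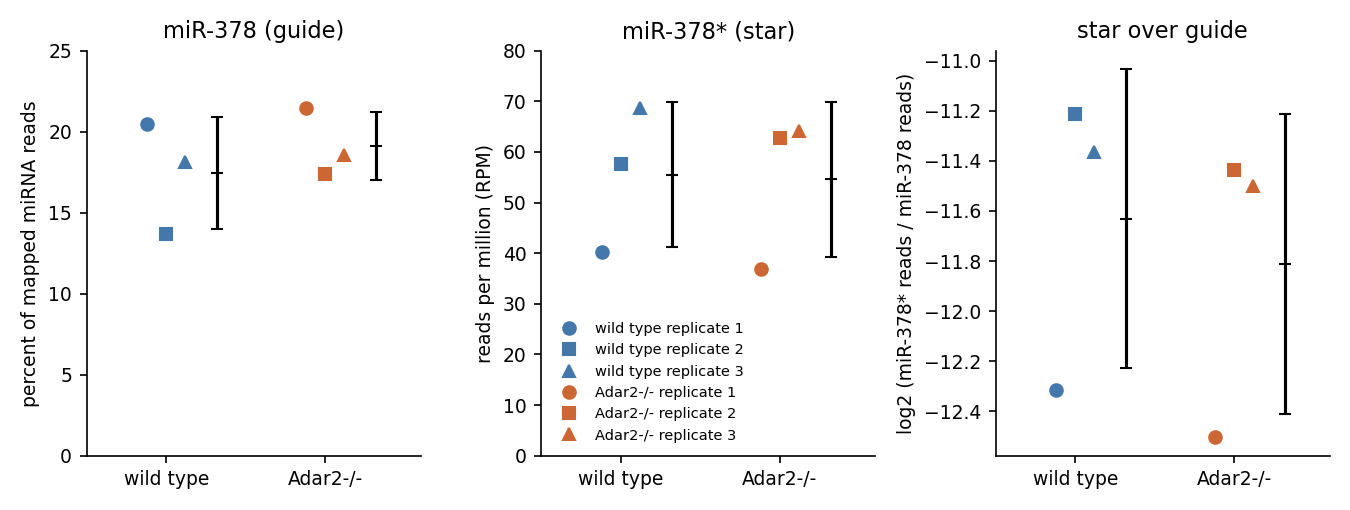
miR-378 as percent of mapped miRNA reads (left), miR-378* in RPM (middle) and the log2 ratio of star to guide reads (right) for each library, with the mean and SD of each genotype (n = 3) beside the points. The axes of the left and middle panels start at 0, and that of the right panel does not. The replicate 1 libraries of both genotypes had the most miR-378, the least miR-378* and log2 ratios of -12.31 and -12.50, below those of the other 4.

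Neither arm differed between the genotypes by more than the spread between brains. The question here is whether the loss of ADAR2 goes along with another level of either strand. The mean share of miR-378 was 17.4% ± 3.45 (SD, n = 3) for wild type against 19.1% ± 2.10 (SD, n = 3) for Adar2-/-, a difference of 1.70 percentage points (two-sided exact permutation test, p = 0.5). The smallest p this test can give with 3 libraries against 3 is 0.1. Adar2-/- stood at 1.05, 1.27 and 1.03 times the wild type of the same replicate number, yet the 2 sets of libraries overlap. The level of miR-378* was 55.5 ± 14.4 RPM (SD, n = 3) for wild type against 54.6 ± 15.3 RPM (SD, n = 3) for Adar2-/- (difference -0.92 RPM, two-sided exact permutation test, p = 1). Within replicate numbers the ratios for the star were 0.918, 1.09 and 0.934, without a common direction.

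In edgeR's quasi-likelihood test over the 399 miRNAs the log2 fold change of miR-378, positive where Adar2-/- is higher, was 0.13 (SE 0.310, 95% interval -0.56 to 0.82, Benjamini-Hochberg adjusted p = 0.989). For miR-378* it was -0.02 (SE 0.361, 95% interval -0.83 to 0.78, adjusted p = 0.989). The intervals leave room for changes in either direction. At an adjusted p of 0.05 edgeR called 0 of 399 miRNAs (0%), 13 (3.26%) had an unadjusted p under 0.05, neither member among them, and DESeq2 called 1 miRNA, also not a member. The genotypes did not overlap in RPM for 23 of 399 miRNAs (5.76%), and both arms of miR-378 were outside that set. The log2 fold change of miR-378 was 0.27 without wild-type replicate 1, 0.16 without Adar2-/- replicate 3 and -0.013 without wild-type replicate 2, the library with its lowest share. For miR-378* the sign turned when wild-type replicate 2 (0.0027), wild-type replicate 3 (0.16) or Adar2-/- replicate 1 (0.19) was left out.

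Since miR-378 takes such a large share, it also bears on the total that all levels are divided by. With both rows left out of the total, the mean of miR-378* was 67.1 RPM in wild type and 67.3 RPM in Adar2-/-, which turned the sign of its difference to 0.142 RPM (p = 1 in the exact permutation test, two-sided). At the same time the median log2 fold change over the 399 miRNAs moved from 0.0023 to 0.03. With library sizes scaled by TMM, the share of miR-378 was 17.2% ± 1.67 (SD, n = 3) for wild type against 19.4% ± 4.60 (SD, n = 3) for Adar2-/- (two-sided exact permutation test, p = 0.7). Its direction was kept under each of these totals.

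Across all 6 libraries miR-378 varied little for a miRNA with so many reads. Its coefficient of variation in RPM was 14.9%, place 30 from the lowest of 399 miRNAs, whose median was 30.4%. Among the 25 miRNAs with the most reads only miR-101a with 13.2% and miR-21 with 14.0% varied less. The neural miRNA miR-9 was close to it with 16.03%, while miR-183 had 45.8% and miR-182 had 61.7%. The star miR-378*, with far fewer reads, had 24.1%, place 119.

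The miRNA with the second most reads in every library was miR-9, which acts in neural progenitors and neurons. It had 151020, 121262 and 105455 RPM in wild type and 110323, 109076 and 99104 RPM in Adar2-/-. The corresponding values of miR-378 were 204840, 136857 and 181200 RPM, and 214534, 173622 and 185784 RPM. miR-378 thus exceeded miR-9 by 1.36, 1.13 and 1.72 times in wild type and by 1.94, 1.59 and 1.87 times in Adar2-/-. The lead was smallest in wild-type replicate 2. After miR-9 followed miR-127 of the imprinted Rtl1 locus with a mean of 60477 RPM, miR-182 with 56300 RPM, miR-183 with 55650 RPM and the endothelial miR-126-3p with 30476 RPM. In each library the 1025 or more least-read miRNAs had, as a sum, fewer reads than miR-378.

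**Figure D2:**
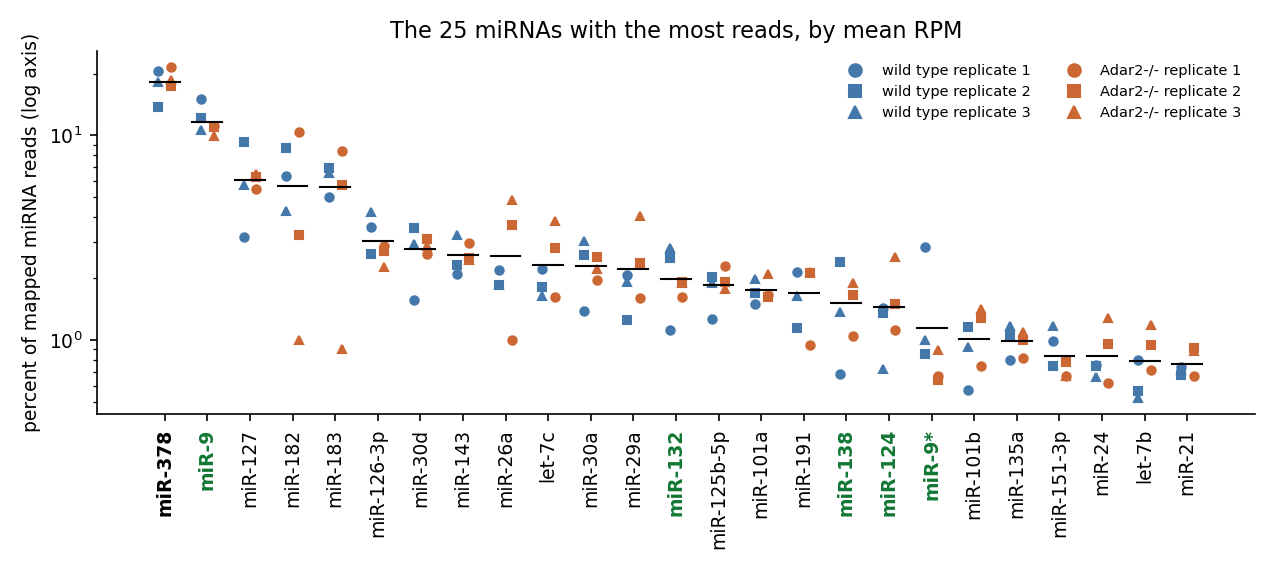
Percent of mapped miRNA reads (log axis) of the 25 miRNAs with the most reads, ordered by mean RPM, with a point for each library and a bar at the mean over 6 libraries. Names in green belong to the brain-enriched list. miR-378 lies above miR-9 in every library, and miR-182 and miR-183 spread over a much wider range than miR-378.

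A list of miRNAs known to be enriched in brain (miR-9, miR-124, miR-128, miR-129, miR-132, miR-137, miR-138, miR-153, miR-212, miR-218, miR-219 and miR-338, all arms) held 29 rows, and all of them had reads. Together they took 226011, 209225 and 180549 RPM in wild type and 168663, 183152 and 190332 RPM in Adar2-/-, a mean of 19.3% ± 2.10 of the reads (SD, n = 6). Thus 1 strand of miR-378 had about as many reads as the whole list. The ratio of miR-378 to the summed list was 0.906, 0.654 and 1.00 in wild type and 1.27, 0.948 and 0.976 in Adar2-/-. It was clearly above 1 in Adar2-/- replicate 1 alone. The log2 ratio was -0.25 ± 0.32 (SD, n = 3) for wild type against 0.08 ± 0.23 (SD, n = 3) for Adar2-/-, a difference of 0.33 that the two-sided exact permutation test did not separate (p = 0.3). Against miR-124 alone the difference was -0.39 (p = 0.5, same exact test), and against a wider list of miRNAs abundant in brain it was -0.11 (p = 0.8, same exact test), so its direction depends on the miRNAs taken as reference.

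Within the brain-enriched list the guides stood at very different distances from miR-378. By mean RPM, miR-378 exceeded miR-132, which responds to neuronal activity, 9.21-fold. It exceeded miR-138, which acts in dendritic spines, 12.1-fold, and the neuronal miR-124 12.6-fold. The ratio was 26.7 for miR-153, 54.8 for miR-218, 246 for miR-137 and 265 for miR-128. Of the 26 members of the list tested, edgeR called 0, with 12 positive and 14 negative log2 fold changes and a median of -0.06, beside 0.0023 over all miRNAs tested.

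The wider list (let-7, miR-98, miR-26, miR-29, miR-30, miR-99, miR-100, miR-125 and miR-181) had 65 rows and took 19.4% ± 4.24 of the reads (SD, n = 6), again close to the share of miR-378. Its sum was 164345 to 183980 RPM for wild type and 153558 to 265829 RPM for Adar2-/-. The miRNAs at its head were miR-30d with a mean of 27823 RPM, miR-26a with 25677 RPM and let-7c with 23298 RPM. Of its 51 tested members edgeR called 0, and 28 log2 fold changes were positive and 23 negative, with a median of 0.05.

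Because miR-378 is known from other tissues, the miRNAs that mark those tissues were read beside it. The striated muscle list (miR-1, miR-133, miR-206, miR-208 and miR-499; 17 rows) summed to 2386 to 3184 RPM in wild type and to 2293 to 3456 RPM in Adar2-/-. miR-1 led it with a mean of 1433 RPM, followed by miR-206 with 1246 RPM and miR-133a with 121.9 RPM. miR-378 stood 85.8, 48.2 and 56.9 times above this sum in wild type and 93.6, 50.2 and 57.5 times in Adar2-/-, so that muscle miRNAs were present but low beside it. The brown fat list (miR-193, miR-365 and miR-455; 9 rows) summed to 107.9 to 155.5 RPM in wild type and to 107.2 to 174.8 RPM in Adar2-/-, most of it miR-365 with a mean of 80.9 RPM. The liver miRNA miR-122 had a mean of 5.07 RPM. The part of other tissues in the reads of miR-378 was not tested.

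Other miRNAs housed in introns of metabolic genes had far fewer reads. They were miR-33 of the Srebf2 gene and miR-103 and miR-107 of the pantothenate kinase genes. Together their 7 rows had 367 to 708 RPM in wild type and 316 to 907 RPM in Adar2-/-, led by miR-103 with a mean of 364 RPM. All 3 tested members had positive log2 fold changes, with a median of 0.30, and edgeR called 0.

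Vascular, blood and epithelial miRNAs were also read as marks of the cells in the samples. The endothelial miR-126 strands summed to 29130 to 47306 RPM in wild type and to 25041 to 31721 RPM in Adar2-/-, and the smooth muscle miR-143 and miR-145 to 21497 to 32995 RPM and 25284 to 29941 RPM. The erythroid list, led by miR-451, ran from 446 to 1600 RPM and from 1131 to 1528 RPM. The immune list, led by miR-142-3p, ran from 833 to 2021 RPM and from 1104 to 1477 RPM. The epithelial miR-200 family ran from 4889 to 6460 RPM and from 754 to 9311 RPM, with the lowest value in Adar2-/- replicate 3. Choroid plexus miRNAs, almost all of them miR-204, ran from 840 to 1584 RPM and from 1066 to 1626 RPM, and miR-34 and miR-449 of ciliated cells from 385.3 to 528.7 RPM and from 365.1 to 701.5 RPM. All of these lists overlapped between the genotypes, and edgeR called no member of them.

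The read numbers of the arms of the hairpin differed by more than 3 orders of magnitude. For each read of miR-378* the wild-type brains, again in the order of their numbers, had 5090, 2374 and 2637 reads of miR-378. The Adar2-/- brains had 5806, 2769 and 2895. The guide thus made up 99.980%, 99.958% and 99.962% of the reads of both arms in wild type and 99.983%, 99.964% and 99.966% in Adar2-/-. The star had 0.0196% of the reads of both arms in wild-type replicate 1 (95% Wilson interval 0.0180 to 0.0214) and 0.0421% in wild-type replicate 2 (0.0399 to 0.0444). These intervals do not meet, so libraries of the same genotype differ by more than counting error. The log2 ratio of star to guide was -11.63 ± 0.60 (SD, n = 3) for wild type against -11.81 ± 0.60 (SD, n = 3) for Adar2-/-, a difference of -0.18 (two-sided exact permutation test, p = 0.5). It was 0.03 without wild-type replicate 2 and 0.16 without Adar2-/- replicate 1, the reverse direction. Between libraries of the same replicate number it was -0.19, -0.22 and -0.13, lower in Adar2-/- in 3 of 3.

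Both arms had at least 100 reads in every library in 102 hairpins, counted among those whose arms could be paired by name. Among these miR-378 had the highest mean share of the more-read arm, 99.97%, a value from the reads it was selected on and given without a test. miR-30d with 99.95% and miR-191 with 99.91% came next, followed by miR-382 with 99.80% and let-7g with 99.75%. The median over the 102 hairpins was 88.1%, and 13 of them exceeded 99%. The order at the top is not firm, since by the geometric mean of the ratio miR-30d, with 3503 guide reads for each star read, stood above miR-378 with 3377.

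The minimum of reads on the star decides this place. In 233 hairpins paired by name the more-read arm reached 100 reads in every library, and among them miR-378 came at place 13. Of the 12 above it, 5 had a less-read arm with 0 reads in at least 1 library. Just above it were let-7b with 99.9736% and miR-23b with 99.9726%, and just below it miR-301a with 99.9652% and miR-7b with 99.9617%. Also above it were, among others, miR-182, whose star had a mean of 0.0774 RPM, miR-183, whose star had 0.897 RPM, and miR-143. The 55.1 RPM of miR-378* lay above the stars of miR-191 with 14.3 RPM and miR-30d with 10.0 RPM and below miR-124* with 78.7 RPM.

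**Figure D3:**
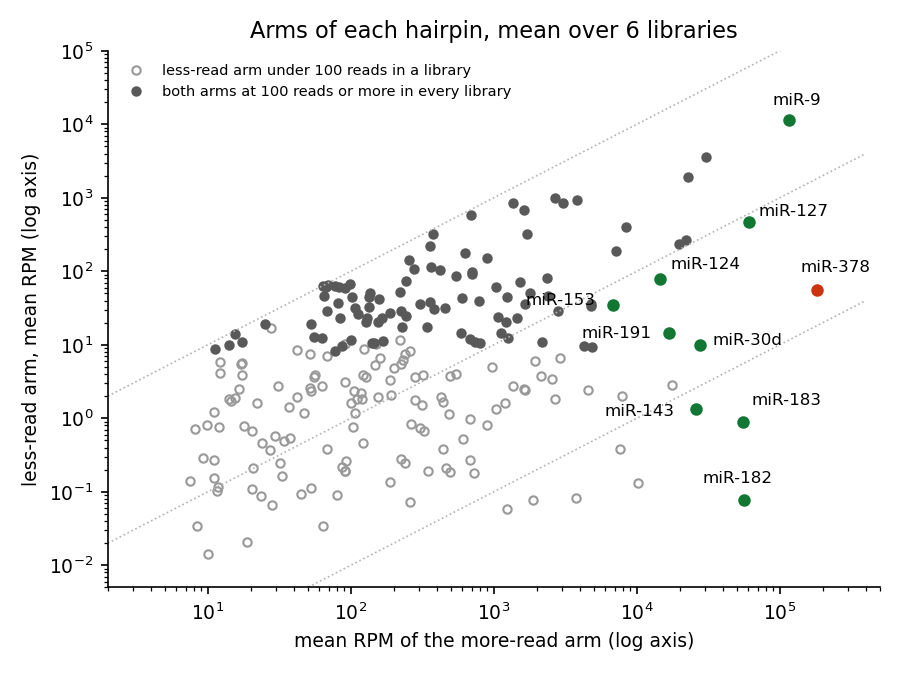
Mean RPM over 6 libraries of the less-read arm against the more-read arm (both log axes) for 232 of 233 hairpins, leaving out the 1 whose less-read arm had no reads. Filled grey points have both arms at 100 reads or more in every library, named hairpins are coloured, and dotted lines mark ratios of 1, 100 and 10000. miR-378 lies farthest to the right, with a star level near those of miR-124 and miR-153 and far below that of miR-9.

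The 7 known brain hairpins that could be compared had a larger share of their reads on the less-read arm. miR-128, miR-129, miR-138 and miR-218 were not paired, because the names of their other arms carry a locus number. By mean RPM, miR-138 had 15154 beside 45.0 and 16.4 for its other arms, and miR-218 had 3337 beside 19.8 and 1.56. miR-128 had 689 beside 71.3 and 9.11, and miR-129-5p had 1137 beside 1020 and 123. Of the 7 brain-enriched hairpins among the 102, miR-153 had 99.47% of its reads on the guide, miR-124 had 99.40%, miR-132 had 98.6% and miR-137 had 98.2%. miR-9 had 91.6%, from 84.19% to 94.49% over the libraries. Its star miR-9*, itself a functional strand in neurons, had a mean of 11485 RPM. That mean was raised by wild-type replicate 1 with 28362 RPM, while the other libraries had 10067 RPM or less. miR-219-3p, here paired with miR-219-5p, with 84.6% and miR-338-3p with 74.2%, of the oligodendrocyte miRNAs, had the least. Each of the 6 libraries of miR-378 lay above the highest library of any of these 7 hairpins, which was 99.83% for miR-153. By name miR-219-3p also pairs with miR-219-3p*, whose minimum of 9 reads in a library kept that pair out of the 102. In that pairing miR-219-3p had 99.9045% of the reads, from 99.8686% to 99.9462% over the libraries. The lowest library of miR-378, with 99.9579%, lay above these values as well.

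The ratio of the arms was about as variable as in other hairpins. The SD of the log2 ratio over 6 libraries was 0.54 for miR-378, and the median over the 102 hairpins was 0.57. In 10 of 102 hairpins (9.8%) the genotypes did not overlap in this ratio, and miR-378 was not among them. Counting miR-378 itself, 81 of the 102 had an absolute difference between genotypes at least as large as its own. The median over the 102 was 0.40.

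Most of the spread of the ratio lay between replicate 1 and the rest, a pattern chosen after its values were seen. Replicate 1 of either genotype had the most guide and the least star, and its log2 ratio was 1.03 lower on average than in the other 4 libraries. Over the 102 hairpins the same difference had a median of 0.21 and ran from -1.57 to 2.10, and only miR-376b*, miR-664* and miR-219-3p had a lower value. Both replicate 1 libraries lay below the other 4 in 10 hairpins and above them in 12. In the tables the columns of replicate 1 are named with other numbers than those of replicates 2 and 3. What these numbers stand for is not given in the sources used here, and their part in the ratio was not tested.

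**Figure D4:**
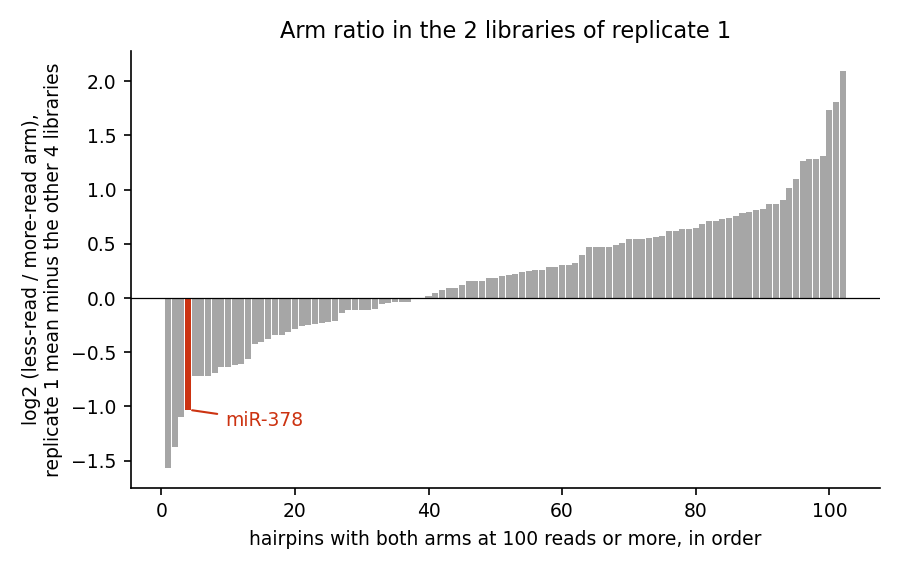
Log2 ratio of the less-read to the more-read arm, mean of the 2 replicate 1 libraries minus the mean of the other 4, for 102 hairpins in order of the difference. miR-378, in red, stands at -1.03 and has 3 hairpins below it, while the median hairpin was at 0.21.

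The miRNAs whose log2 RPM most resembled that of miR-378 over the 6 libraries were miR-342-5p (Pearson's r = 0.93, Spearman's rho = 0.89), miR-130b* (r = 0.90, rho = 0.89) and miR-690 (r = 0.89, rho = 0.94). Without the 2 libraries farthest from the median of miR-378, r was 0.76, 0.87 and 0.99. The level of miR-378* was most resembled by miR-673-5p (r = 0.96, rho = 0.94), miR-135a (r = 0.96, rho = 0.89) and miR-206 (r = 0.94, rho = 0.49). Without the 2 farthest libraries these became 0.80, 0.65 and -0.49, so the likeness to miR-206 rests on those libraries. The arms of miR-378 did not follow each other, with r = -0.58 and rho = -0.49. All of these values share the library totals, rest on 6 points and are the extremes of many comparisons, so they are a description only.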

How the data were processed

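Small RNA of 19 to 25 nucleotides from whole brain was sequenced by the authors with 1 library per brain. Per the study's methods, adaptors were removed with Cutadapt and reads were mapped with NextGenMap against mature miRBase sequences with at most about 2 mismatches. Hits to the reverse strand were discarded, and reads with several hits were weighted. How the weights became whole numbers is not given in the sources used here. The authors deposited raw read counts without normalization in 3 tables, each with 1 wild-type and 1 Adar2-/- library. Columns were matched to samples by genotype and replicate number, and 12 rows without a miRNA name were left out. The labels do not tie a replicate number to a shared batch, and Adar2 mRNA was not analysed here.

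Counts were divided by the total of mapped miRNA reads of the library, 12449633 to 23935544. Reads carry no molecular identifiers, so 95% Wilson intervals cover counting error only. Mature miRNAs are of nearly equal length, and levels were not divided by it. Genotypes were compared by the quasi-likelihood test of edgeR 4.0.16 (R 4.3.3), with the total as library size, no scaling factor and no block, for the 399 miRNAs that reached 100 reads in every library. Benjamini-Hochberg adjustment was over all 399, with a threshold of 0.05. For single values an exact permutation test over libraries was used, two-sided. Alternatives were TMM scaling, totals without the miR-378 rows or without the 5 most abundant miRNAs, DESeq2 1.42.0, minima of 10 reads or none, a replicate block, other reference miRNAs and each library or replicate number left out. The procedure was tested on simulated data.

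Arms were paired by name alone, a row with its star row or a 5p row with its 3p row. Guides whose star names carry a locus number, such as let-7c, miR-24 and miR-138, had no pair and were not ranked. Each name pair is counted as a hairpin, so miR-219-3p stands in 2 of the 233. Named miRNAs are the miR-378 rows, the 5 with the next highest mean RPM, up to 3 leading rows of each list, all brain-enriched rows where arms are compared, the 3 most similar to each member and the 2 hairpins on either side of miR-378. Further miRNAs are named for their place in a ranking, as hairpins with a lower difference or for their sequence. Members and lists were chosen with earlier results of these data known. Sequences are from RefSeq on GRCm38.p6, in which 12 of 16 names looked up had an entry. The sequence and position of miR-378 are not reported here. The remaining steps were run in Python 3.11.15 with scipy 1.17.1, pandas 2.3.3, numpy 2.4.6 and, for plots, matplotlib 3.10.9.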

Additional observations from a re-analysis of the deposited data

How the results depend on the processing

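No alternative brought either arm of miR-378 past the threshold, and in a design whose smallest exact p is 0.1 this says little about stability. The share of miR-378 kept its direction except without wild-type replicate 2, with leave-out differences from -0.17 to 3.23 percentage points. Its log2 fold change ran from 0.11 to 0.17 under other totals, filters and tools and from -0.013 to 0.27 with libraries left out, again reversed without wild-type replicate 2 (edgeR and DESeq2, adjusted p 0.758 to 0.9996). The difference of miR-378* has no firm sign. With the miR-378 rows left out of the total it was 0.142 RPM and 0.0027 on the log2 scale, and with libraries left out it ran from -8.57 to 7.91 RPM and from -0.21 to 0.19 on the log2 scale. It reversed without wild-type replicate 2 or 3, Adar2-/- replicate 1, or replicate number 1 or 3 of both genotypes. The log2 ratio of the arms ran from -0.52 to 0.16 and reversed without wild-type replicate 2 or Adar2-/- replicate 1. The log2 ratio of miR-378 to the brain miRNAs was 0.38 against miR-9 alone and reversed to -0.11 against the wider list and -0.39 against miR-124. The cause was not tested. The number of miRNAs past the threshold was 1 with DESeq2 and 0 to 18 with libraries left out, where all 18 came without replicate number 1 and were higher in Adar2-/-, neither arm of miR-378 among them.

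A correlation of deviations detected no pairing of the samples by replicate number, although replicate 1 had the lowest arm ratio of miR-378 in both genotypes. Deviations from the genotype means of same-numbered libraries correlated at -0.001, -0.076 and -0.014, and no library correlated best with its own number. Across all combinations of a wild-type and an Adar2-/- library the values ran only from -0.076 to 0.073. This check therefore cannot tell whether same-numbered libraries share a batch. With a replicate block the log2 fold change was 0.15 for miR-378 (edgeR, adjusted p = 0.983) and -0.03 for miR-378* (adjusted p = 0.993), and 0 miRNAs passed, with 7 at an unadjusted p under 0.05. For the paired differences of the miR-378 share and of the arm ratio, an exact sign-flip permutation test gave p = 0.25 each, the smallest that 3 pairs allow. Depth limits miR-378* most, with 501 reads in its shallowest library.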
